A study of Mus musculus with 4 samples.

Results

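The genes described here mark the cells of brain blood vessels: 6 of endothelial cells (Kdr, Flt1, Tek, Tie1, Cldn5 and Abcb1a) and 4 of mural cells, the pericytes and smooth muscle that wrap the endothelium (Pdgfrb, Notch3, Abcc9 and Rgs5). A differentially methylated region was assigned to a gene when it overlapped the RefSeq gene body widened by 10 kb on both sides. All 10 genes were found, and the authors' deposited table of 101350 regions gave them 73. The 73 regions comprise 32 in the CG context, 40 in CHH and 1 in CHG (H is any base but G).

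The table compares somatosensory cortex of mice aged 2.5 months by whole-genome bisulfite sequencing, in which unmethylated cytosines are converted and methylated ones are still read as cytosine. A conditional knockout labelled Nsd1Nex-cKO (cKO, 2 libraries) was set against a control labelled Nsd1fl/+ (2 libraries), so that the control also carries a floxed allele. The labels do not say whether the control carries the driver or whether the libraries come from separate animals. The Nex driver is active in excitatory neurons and not in endothelial or mural cells. All cells of the tissue, the targeted neurons among them, carry these genes in their DNA. The levels given here are therefore readings of the whole tissue and not of vascular cells alone. The table gives 1 mean level per group and region and no value per library, so no spread could be set beside a difference, no test was possible, and depth is unknown. In bulk tissue, a different level per cell and a different share of a cell type cannot be told apart. No expression values are used here, so the cell type labels of the genes could not be checked.

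As background, endothelial cells respond to VEGF through receptor tyrosine kinases and to angiopoietins through TIE receptors, and seal the blood-brain barrier with claudins and efflux pumps. They recruit mural cells with PDGF and signal to them through Notch. CG methylation is high over most of the genome and low at active promoters and enhancers of the cell that uses them. Methylation outside CG accumulates in neurons after birth. NSD1 methylates histone H3 in chromatin that the DNA methyltransferase DNMT3A recognises.

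At the starts of Cldn5 and Notch3, a region with lower CG methylation in cKO overlapped the promoter itself. Of the 10 genes, 9 had a promoter window in the RefSeq table (250 bases before to 50 after the start), and 2 of these windows overlapped a CG region lower in cKO, against 1.19% of 21045 windows of protein-coding genes. The bases before each start are shown because the called region reaches into them, read 5′ to 3′ on the strand of the gene (GRCm38.p6, the assembly of mm10). Capitals mark the bases inside the deposited CG region. The region is 419 bp long in Cldn5 and 256 bp in Notch3, and extends upstream beyond the printed bases.

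Cldn5, chr16:18776597-18776846, plus strand: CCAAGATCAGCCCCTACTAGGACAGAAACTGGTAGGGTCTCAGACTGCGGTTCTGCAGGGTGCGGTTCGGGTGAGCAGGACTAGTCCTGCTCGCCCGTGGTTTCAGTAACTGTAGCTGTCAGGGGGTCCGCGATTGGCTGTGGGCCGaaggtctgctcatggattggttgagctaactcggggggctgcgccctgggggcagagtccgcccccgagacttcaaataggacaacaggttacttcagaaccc
Notch3, chr17:32166897-32167140, minus strand: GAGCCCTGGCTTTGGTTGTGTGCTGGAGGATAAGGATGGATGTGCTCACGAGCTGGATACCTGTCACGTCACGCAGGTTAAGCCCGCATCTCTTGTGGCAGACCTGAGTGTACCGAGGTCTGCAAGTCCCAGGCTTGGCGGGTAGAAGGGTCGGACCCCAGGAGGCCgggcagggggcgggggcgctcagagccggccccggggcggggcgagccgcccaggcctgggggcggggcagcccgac

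The Cldn5 stretch of 250 bases holds 12 CpG sites, 8 of them in the 147 capital bases, and the Notch3 stretch of 244 bases holds 17, with 7 in the 167 capital bases. In both, the bases nearest to the start lie outside the region. A few short motifs of vascular regulators were sought on both strands of the 9 windows: the ETS core CCGGAA, the forkhead core TGTTTAC, the SOX core ACAATG and the RBPJ core GTGGGAA, of which the first and last share the ending GGAA. None was found in the Cldn5 and Notch3 windows, which hold only part of the called regions. CCGGAA occurred in Kdr (18.9% of all windows), TGTTTAC in Abcb1a (3.03%), and GTGGGAA in Kdr and Tie1 (6.07%), while ACAATG was in 0 of the 9 windows (10.5% of all).

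Across the 10 genes, methylation was lower in cKO at 71 of the 73 regions, 31 of 32 in CG and 39 of 40 in CHH. Losses also made up most of the whole table, with 94.4% of all CG and 84% of all CHH regions lower in cKO, and 88.6% and 67.3% of those near protein-coding genes. A CG region lower in cKO was assigned to 7 of the 10 genes, against 33.8% of 21523 protein-coding genes widened alike, and a CHH region lower in cKO to all 10, against 29.2%. The shares were 34.2% and 29% among 18482 protein-coding genes with a body length within the range of the 10. This range, from 1.416 kb (Cldn5) to 181.485 kb (Abcb1a), takes in most protein-coding genes and so does not match length. A CG region higher in cKO lay in 1 gene, Pdgfrb (9.21% of protein-coding genes), and a CHH region higher in cKO in 1, Abcb1a (18.2%). Both kinds of loss were listed for 7 genes, as for 18.3% of protein-coding genes. Per 100 kb of gene and flank, the 10 genes together held 3.13 CG regions and 3.94 CHH regions lower in cKO, against 1.48 and 1.28 over all protein-coding genes. These figures describe the genes, which had been chosen with earlier results of these data known.

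**Figure D1:**
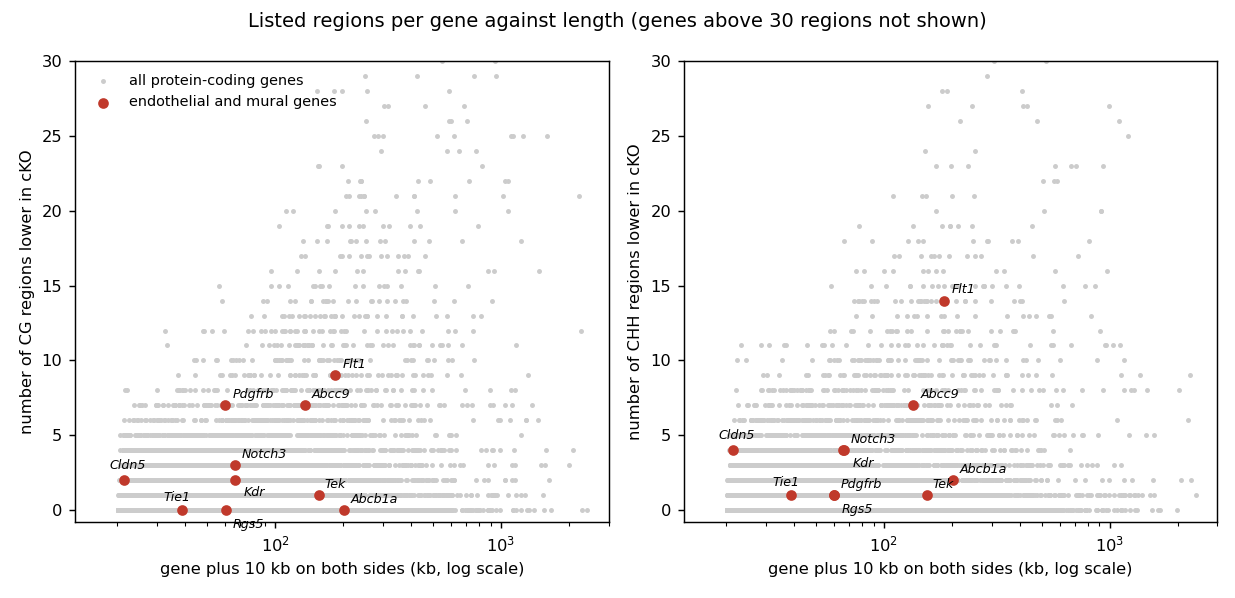
Number of CG (left) and CHH (right) regions lower in cKO per gene against the length of the gene with its flanks (kb, log scale). Grey points are all protein-coding genes and red points the 10 endothelial and mural genes; Flt1 has the highest numbers of the 10, with 9 CG and 14 CHH regions.

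The size of the differences was close to that near other genes. Over the 31 CG regions lower in cKO, the control median was 72.0% and the cKO median 40.6%. The differences had a median of -29.5 points and ran from -41.0 to -14.4. The 19218 such regions near protein-coding genes had medians of 75.3% and 42.6%, differing by a median of -30.4 points. Over the 39 CHH losses, the control median was 5.15% and the cKO median 0.838%, against 5.60% and 1.06% for 16769 such regions near protein-coding genes. Without Flt1, a choice made once the values were known, 22 CG and 25 CHH losses were left, with median differences of -31.8 and -4.30 points.

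Regions near the endothelial and the mural genes were also summarised apart. In the 14 CG losses of endothelial genes the median was 75.2% in control and 42.2% in cKO, and the differences had a median of -28.6 points. In the 17 of mural genes these values were 72.0%, 40.6% and -33.3 points. In CHH the medians were 5.42% and 0.824% over 26 endothelial losses, and 4.71% and 0.950% over 13 mural losses. In neither context was the difference between the gene groups tested, as regions of 1 gene share their source. Flt1 held 9 of the 14 CG and 14 of the 26 CHH losses of endothelial genes. Pdgfrb and Abcc9 held 7 each of the 17 CG losses of mural genes, and Abcc9 7 of the 13 in CHH. Tie1, Abcb1a and Rgs5 had 0 CG losses. The medians therefore rest largely on a few genes.

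**Figure D2:**
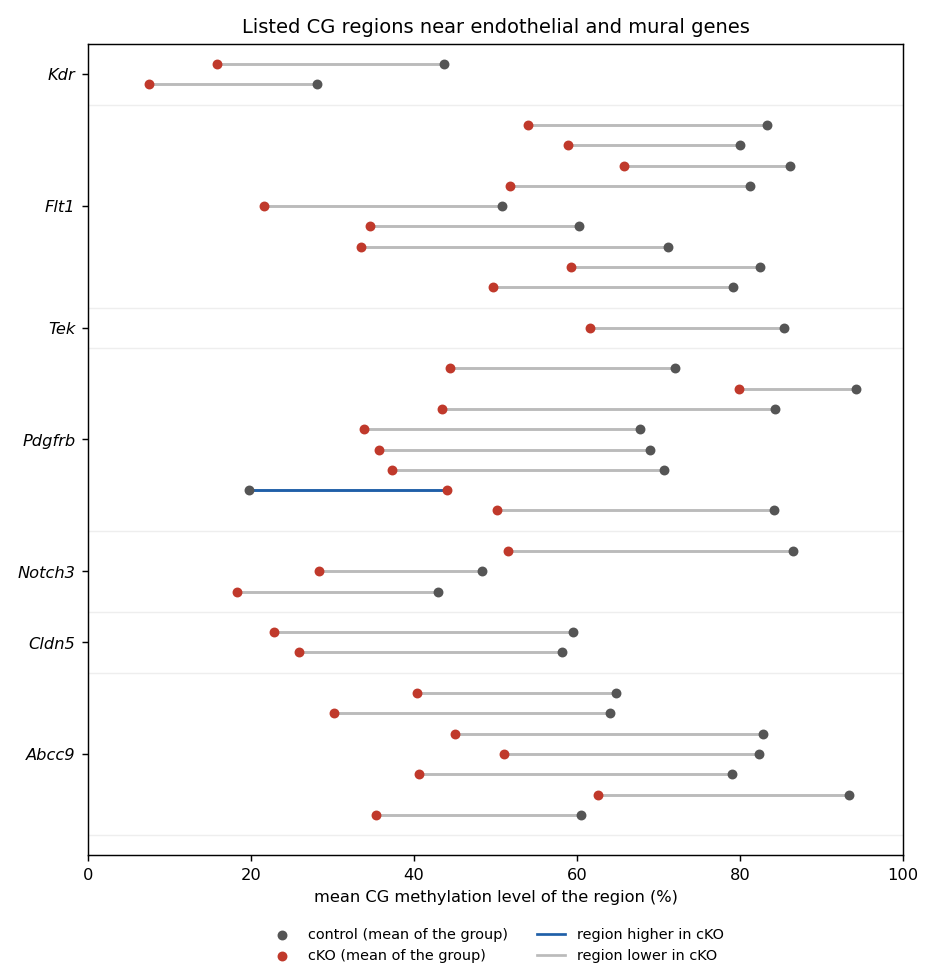
Mean CG level (%) of every listed CG region of the 10 genes, ordered by position within a gene, in control (grey points) and cKO (red points). The cKO point lies to the left in 31 of the 32 regions, and the blue line marks the region in Pdgfrb that was higher in cKO.

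Among the VEGF receptors, Kdr (VEGFR2, the main signalling receptor of endothelial cells; chromosome 5, 75932827 to 75979072, minus strand) held its CG losses at the start of the gene. The stronger of these (75978878 to 75979103, 22 CG cytosines over both strands) lies 0.423 kb upstream of the start site used here, 75978455. That site lies inside the gene body, and the region spans the end of the body at 75979072. It was at 28.0% in control and 7.48% in cKO. This was the lowest CG level in both groups among all 31 CG losses, and its 3.75-fold ratio of control to cKO was the highest. It also overlaps the long noncoding RNA gene Gm32727. The other CG region, 1.67 kb downstream of the start, was at 43.7% in control and 15.8% in cKO. In CHH, the 4 regions of Kdr, from 1.45 kb upstream to 37.9 kb downstream, were all lower in cKO, and the strongest (75940364 to 75940562, 80 cytosines) was at 6.71% in control and 1.19% in cKO. At least 2 CG losses were listed for 18.6% of protein-coding genes and at least 4 CHH losses for 6.29%.

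Flt1 (VEGFR1, which binds VEGF and in its soluble form traps it; chromosome 5, 147561604 to 147726438, minus strand) carried the most regions of the 10 genes, with 9 CG and 14 CHH losses and 0 gains. At least as many CG losses were listed for 1.97% of protein-coding genes and at least as many CHH losses for 0.757%. These shares are over genes of all lengths, and the window of Flt1 spans 185 kb. Flt1 thus held 29.0% of the CG losses and 35.9% of the CHH losses of the 10 genes. Its CG regions all lie inside the gene, from 27.2 to 162 kb downstream of the start, and the promoter window, with 29 CpG sites, overlapped no listed region. The control level was 79.2% or higher at 6 of them, and cKO levels ranged from 21.5% to 65.7%. The largest difference was at 147675972 to 147676117 (71.2% in control, 33.5% in cKO, 10 CG cytosines). At the region with the largest area statistic, the authors' score of a region summed over its cytosines (147665940 to 147666180, 19 CG cytosines), the levels were 60.2% and 34.7%, and a noncoding RNA gene, Gm35383, overlaps it.

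The strongest CHH region of all 10 genes lies 9.06 kb upstream of the Flt1 start (147735070 to 147735466, 139 cytosines), at 8.32% in control and 1.37% in cKO. Inside Flt1, the region 116 kb downstream of the start was at 5.61% in control and 0.286% in cKO over 76 cytosines, and that 79.1 kb downstream at 5.72% and 0.351% over 66. These levels in cKO were among the lowest of the CHH losses, of which 30 of 39 were under 1.5% in cKO. The cKO median over CHH losses near all protein-coding genes was 1.06%. CG and CHH losses were close together in the 3′ part of the gene: at 88.3 and 88.6 kb downstream a CG region (50.8% to 21.5%) and a CHH region (4.59% to 0.653%) were 139 bp apart.

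The TIE receptors carried few regions. Tek (TIE2, the angiopoietin receptor; chromosome 4, 94739086 to 94874976, plus strand) had 1 CG region 90.6 kb downstream of the start (94829864 to 94830018, 18 CG cytosines), at 85.4% in control and 61.6% in cKO. Its 1 CHH region, 36.8 kb downstream (94776126 to 94776271, 47 cytosines), was at 6.64% and 1.30%. Tie1, an orphan receptor that pairs with TIE2 (chromosome 4, 118471191 to 118489849, minus strand), had 0 CG regions. A single CHH region 4.49 kb downstream of its start (118485142 to 118485362, 80 cytosines) was at 4.09% in control and 0.519% in cKO.

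Pdgfrb, the receptor through which pericytes are recruited (chromosome 18, 61045127 to 61085067), had the densest CG losses per length of the 10 genes, with 7 in its window, or 11.7 per 100 kb. At least 7 CG losses were listed for 3.10% of protein-coding genes. Of the 7, 3 lie outside the gene body and overlap other protein-coding genes, Cdx1 and Gm52351. Without these 3, Cldn5 (9.34 per 100 kb) would be denser. The promoter table used here has no entry for Pdgfrb, so positions are given from the end of the gene body with the lower coordinate. The midpoints of 3 regions lie between 3.55 and 7.29 kb inside that end, at 67.7%, 69.0% and 70.6% in control and 33.8%, 35.7% and 37.3% in cKO, differences within a point of each other. The largest difference of all 31 CG losses was just outside the gene body (61044149 to 61044317, 8 CG cytosines), at 84.4% in control and 43.4% in cKO. This region also overlaps the gene model Gm52351, as does the smallest difference of the 31 (61042018 to 61042086, 94.3% and 79.9%), and the outermost region (72.0% and 44.4%) overlaps Cdx1, an intestinal homeobox gene.

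The one CG region higher in cKO near the 10 genes also lies in Pdgfrb (61056929 to 61057027, 11 CG cytosines). It was at 19.7% in control, the lowest control level among the 32 CG regions, and at 44.1% in cKO. It lies 11.9 kb inside the gene, 4.37 kb from the nearest of the 3 lower regions, so that within 1 gene neighbouring regions differed in direction. The CHH region of Pdgfrb (61046204 to 61046384, 67 cytosines) was lower in cKO, at 0.643% against 4.42%.

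Notch3, the Notch receptor of vascular smooth muscle and pericytes (chromosome 17, 32120820 to 32166896, minus strand), had 3 CG and 4 CHH losses and 0 gains. At least 3 CG losses were listed for 11.4% of protein-coding genes and at least 4 CHH losses for 6.29%. The promoter region shown above (32166974 to 32167229, 19 CG cytosines) begins 0.084 kb upstream of the start and was at 43.0% in control and 18.3% in cKO. The other CG regions lie past the opposite end of the gene, where both overlap the noncoding RNA gene Gm38585, at 48.4% and 86.5% in control and 28.3% and 51.5% in cKO. Downstream of the start, 3 CHH regions at 1.49, 5.88 and 7.10 kb were lower in cKO. The strongest (32160715 to 32161013, 108 cytosines) was at 5.07% and 1.10%, and the farthest reached 0.149% in cKO, the lowest CHH level of the 10 genes, from 3.93%.

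**Figure D3:**
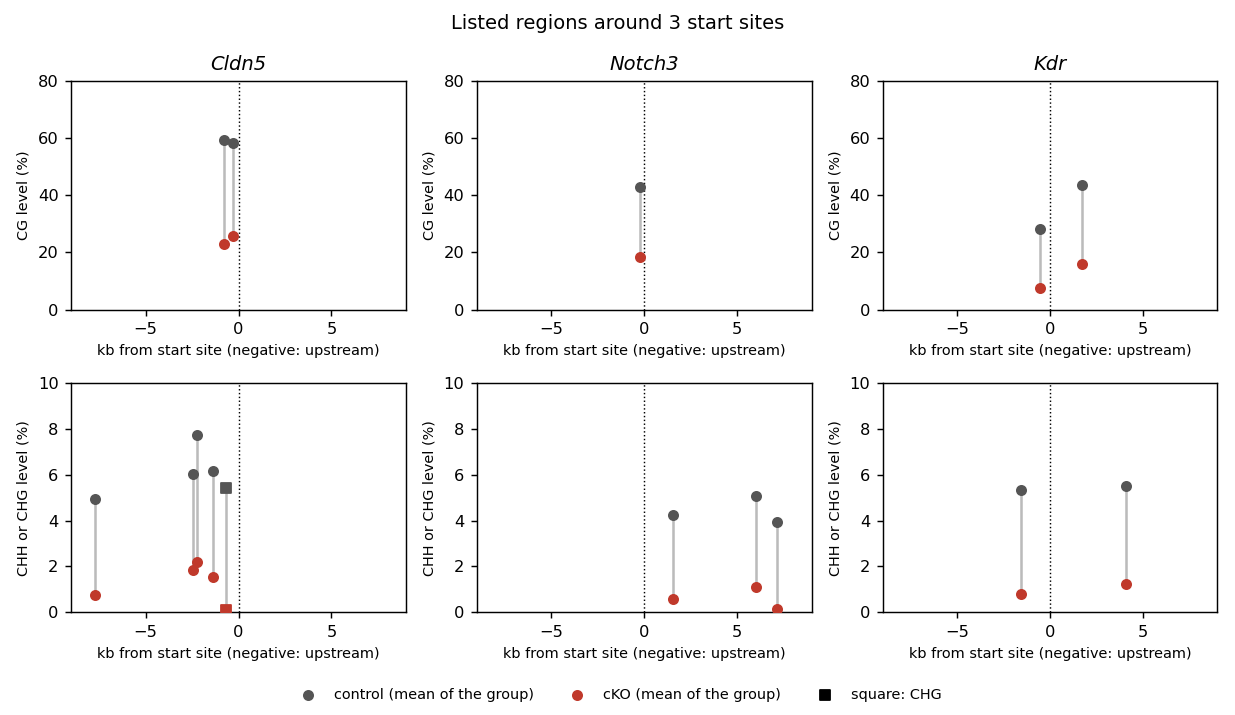
Mean level (%) of each listed region within 9 kb of the start of Cldn5, Notch3 and Kdr against distance from the start (kb), CG in the upper row and CHH or CHG (squares) in the lower row. All points of cKO (red) lie below those of control (grey), and all Cldn5 regions lie upstream of the start.

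In Cldn5, the claudin that seals endothelial tight junctions (chromosome 16, 18776847 to 18778262, plus strand), all 7 regions lie upstream of the start and all were lower in cKO. The gene body itself, 1.416 kb long, overlapped none. The promoter region (18776325 to 18776743, 34 CG cytosines) was at 58.2% in control and 25.9% in cKO, and a second one (18775988 to 18776145, 12 CG cytosines) at 59.5% and 22.8%. Between them lies the only CHG region of the 10 genes (18776151 to 18776229, 20 cytosines), at 5.41% in control and 0.0761% in cKO. A CHG region lower in cKO was listed for 0.883% of protein-coding genes. Next to these, 3 CHH regions between 1.23 and 2.40 kb upstream were at 6.17%, 7.73% and 6.04% in control and 1.52%, 2.17% and 1.83% in cKO, and a further one 7.71 kb upstream at 4.95% and 0.748%. Cldn5 was thus the one gene of the 10 with losses in all 3 contexts, and with 18.7 CHH losses per 100 kb the densest in CHH. As many losses as its 2 in CG were listed for 18.6% of protein-coding genes, and as its 4 in CHH for 6.29%.

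Abcb1a, the P-glycoprotein efflux pump of the barrier (chromosome 5, 8567091 to 8748575, plus strand), had 0 CG regions over 201 kb of window. It held the one CHH region higher in cKO (8576910 to 8577058, 49 cytosines), at 8.48% in cKO and 2.37% in control. This region lies 9.82 kb downstream of the start and is shared with Rundc3b, a protein-coding gene that overlaps Abcb1a, so it cannot be assigned to either gene alone. The other CHH regions, 94.4 and 95.0 kb downstream and outside Rundc3b, were lower in cKO (15.4% of protein-coding genes had at least 2 CHH losses), at 0.634% and 2.21% against 4.46% and 7.78%.

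Of the remaining mural genes, Abcc9, the sulfonylurea receptor subunit of potassium channels in pericytes (chromosome 6, 142587862 to 142702766, minus strand), had 7 CG and 7 CHH losses and 0 gains. Such numbers were reached by 3.10% of protein-coding genes for CG and 2.66% for CHH. The strongest CG region (142634937 to 142635115, 18 CG cytosines) was at 64.1% in control and 30.1% in cKO. A group of 3 CG regions within 1.66 kb, 32.6 to 33.8 kb downstream of the start, were at 79.0%, 82.3% and 82.8% in control and 40.6%, 51.1% and 45.0% in cKO. The strongest CHH region lies 0.854 kb upstream of the start (142703128 to 142703248, 48 cytosines), at 7.14% and 1.58%. The highest CHH level in control among the 10 genes was also in Abcc9 (142608581 to 142608727), at 8.93% against 2.62% in cKO. Rgs5, a regulator of G protein signalling that marks pericytes (chromosome 1, 169655501 to 169695813, plus strand), had only a CHH region 7.33 kb downstream of its start (169662835 to 169662914, 42 cytosines), at 6.52% in control and 1.92% in cKO.

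**Figure D4:**
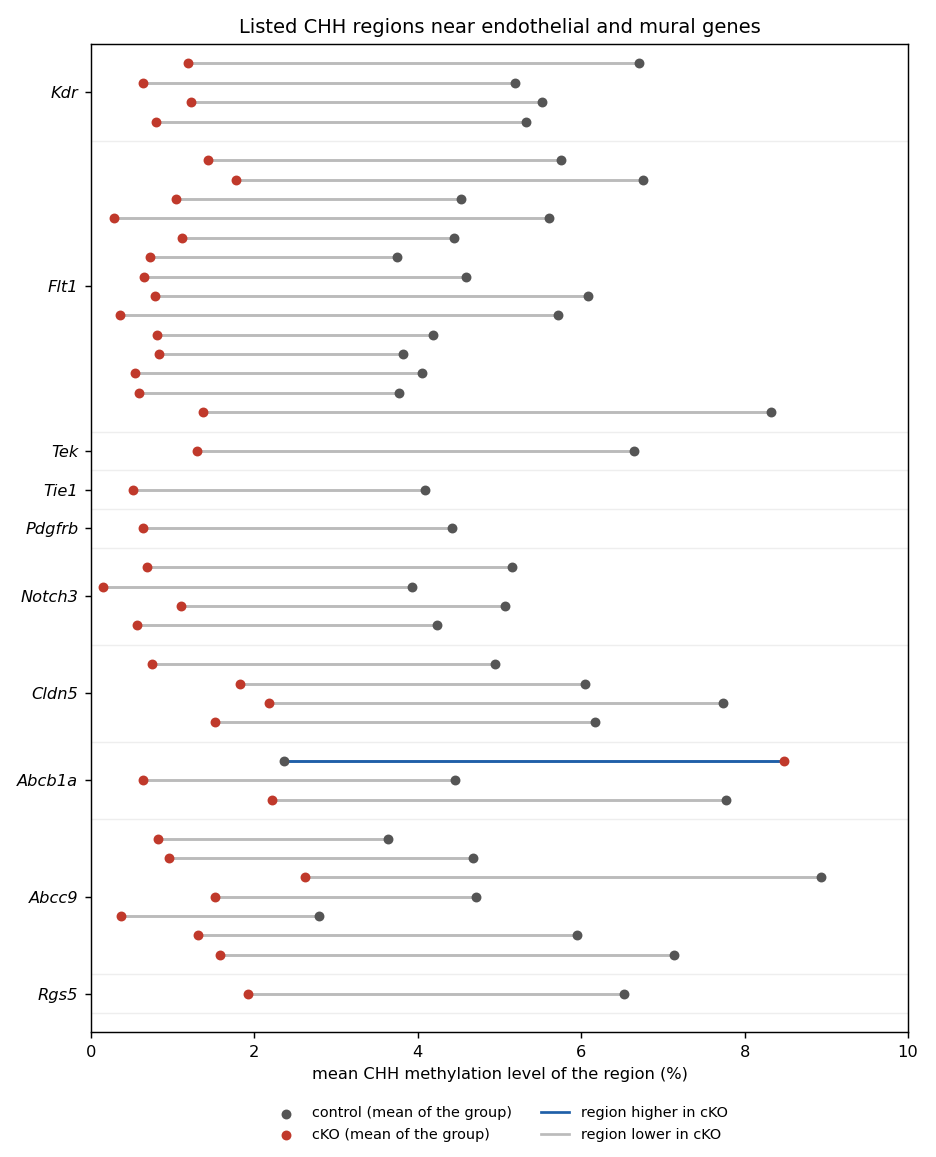
Mean CHH level (%) of every listed CHH region of the 10 genes, ordered by position within a gene, in control (grey points) and cKO (red points). In 39 of 40 regions the cKO level was lower, at most 2.62%, and the blue line marks the region of Abcb1a that was higher in cKO.

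Of the 73 regions, 52 overlapped the gene body of their gene. Among the 9 genes with a start site in the table, 10 regions lay within 2 kb of it, in Kdr, Notch3, Cldn5 and Abcc9. All 10, including the CHG region of Cldn5, were lower in cKO. Near protein-coding genes, 88.6% of CG and 67.3% of CHH regions were lower, and no share was computed for regions near starts alone. Of the 31 CG losses, 27 had a control level of at least 50%; the exceptions were both regions of Kdr and 2 of Notch3, and 3 of these 4 lie within 2 kb of a start. A CHH loss lay within 3 kb of 16 of the 31 CG losses, with a median gap of 2.77 kb. The same counts of position, control level and gap were not computed over regions near other genes. They describe the 10 genes and cannot be called particular to them. The assignment depends on the 10 kb limit. Just inside it were a CHH region of Notch3 at 9.98 kb (5.15% and 0.690%) and the Cdx1 region of Pdgfrb at 9.68 kb. The nearest ones beyond it, also near Notch3, were a CHH region at 11.1 kb (8.29% and 2.38%) and a CG region at 13.2 kb (70.5% and 31.6%).

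**Figure D5:**
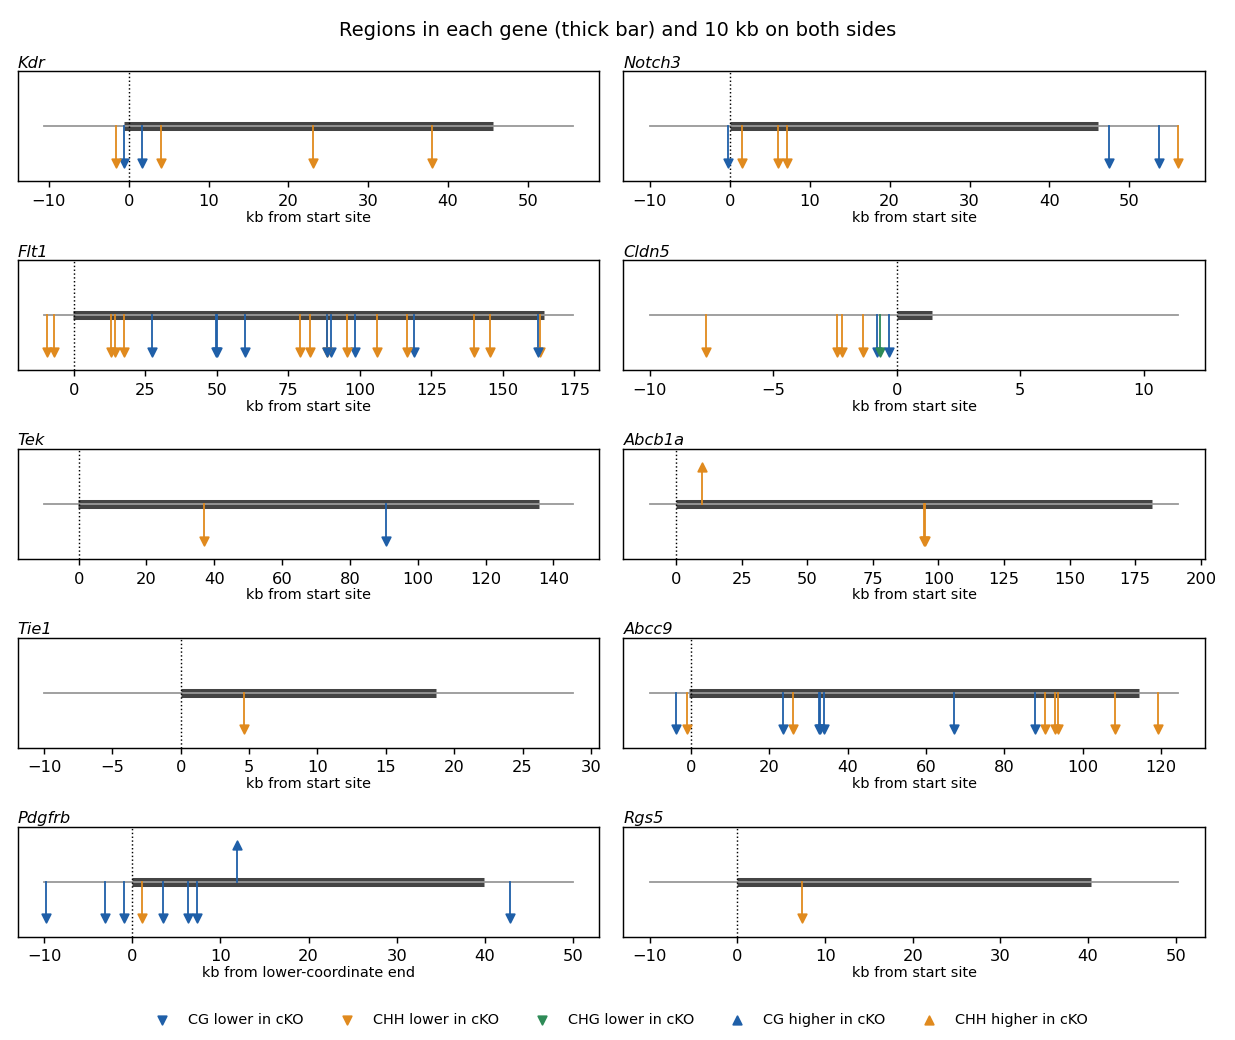
Position of the 73 regions along each gene (thick bar) and 10 kb on both sides, in kb from the start site, or from the lower-coordinate end for Pdgfrb. Arrowheads pointing down are regions lower in cKO, and the 2 pointing up are those of Pdgfrb (CG) and Abcb1a (CHH).

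Other vascular genes, in lists that also were written with earlier results known, had mostly losses too. Of 33 other endothelial genes, 27 carried a CG loss (81.8%) and 23 a CHH loss (69.7%), against 33.8% and 29.2% of protein-coding genes. Their windows ran from 21.8 kb (Sox18) to 252 kb (Tjp1). Shares for this list and those below were not matched for length, and no number per 100 kb was computed for them. A CG gain was carried by 2 of them (6.06%, against 9.21% of protein-coding genes). A CHH gain was carried by 6, or 18.2%, the same share as of all protein-coding genes. The medians of their CG losses were 74.0% in control and 40.7% in cKO. The levels named next are those of the strongest CG region in the window of each gene. They are not levels of whole genes: Lef1 had 12 CG losses, Fli1 7 and Eng 3. In Ptprb, the phosphatase that restrains TIE2 (chromosome 10, 116333552 to 116334098, 46 CG cytosines), the level was 84.9% in control and 46.3% in cKO. The ETS factor Fli1 (chromosome 9, 32449874 to 32450584) was at 80.5% and 30.7%, Lef1, an effector of Wnt signalling, at 59.5% and 27.1%, and Eng, a TGF-beta co-receptor, at 66.2% and 45.2%. Adgrl4, an endothelial adhesion receptor, was at 41.9% and 13.1% and Podxl, a sialomucin, at 70.1% and 36.2%. Tjp1, a tight junction scaffold, had 0 losses and 2 gains each in CG and CHH, and Abcg2, an efflux pump, had 2 CHH gains alone. Nrp1, a VEGF co-receptor, had 5 CHH gains beside 3 CHH losses, and Podxl 1 CG gain beside its 3 CG losses. Tjp1, Abcg2 and Nrp1 were named after their values were seen.

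Of 20 other mural genes, 10 carried a CG loss (50%) and 13 a CHH loss (65%), against 33.8% and 29.2% of protein-coding genes. A CG gain was carried by 0 of them (9.21% of protein-coding genes) and a CHH gain by 3 (15%, against 18.2%). The transcription factor Ebf1 had 48 of the 84 CHH losses of this list, and its strongest CG region (chromosome 11, 44866610 to 44866991) was at 82.5% in control and 41.9% in cKO. The strongest CG region of Foxc1, a forkhead factor, was at 46.1% and 26.8%, and that of Heyl, a target of Notch, at 79.0% and 48.6%. Both of these regions lie in the flanks, outside the gene body. The strongest CG region of Vtn, the matrix protein vitronectin, was at 70.3% and 42.0%. At the strongest CG region, the levels were 73.4% and 46.9% in Ednra, an endothelin receptor, and 65.4% and 42.6% in Des, an intermediate filament.

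Of 13 ligands of the receptors, 8 carried a CG loss (61.5%) and 9 a CHH loss (69.2%), against 33.8% and 29.2% of protein-coding genes. A CG gain was carried by 2 (15.4%, against 9.21%) and a CHH gain by 2 (15.4%, against 18.2%). Jag1, a Notch ligand, had 7 CG losses, the strongest at 42.9% in control and 17.7% in cKO. The strongest CG region of Dll4, the endothelial Notch ligand, was at 56.1% and 27.7%. That of Angpt1, the activating ligand of TIE2, was at 72.3% and 33.7%. In the same way, Angpt2, the context-dependent antagonist of TIE2, was at 50.9% and 29.4%, and Pgf, a ligand of VEGFR1, at 87.9% and 66.2%. Angpt2 also had 1 CG gain and 2 CHH gains in its window, and Vegfc, a ligand of lymphatic endothelium named after its values were seen, had 1 CHH gain and 0 other regions. The Angpt2 region is shared with Mcph1, within which Angpt2 lies. Near Vegfb, which had 2 CG gains and 0 losses, the strongest CG region went the other way (chromosome 19, 6974948 to 6975102, 35 CG cytosines), at 32.9% in cKO and 9.54% in control, but it lies outside Vegfb, in Plcb3 and Ppp1r14b. Pdgfb, the ligand of Pdgfrb, had 0 CG regions and 1 CHH loss. None of the regions of these 66 genes was shared with the 10 genes described above.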

How the data were processed

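Whole-genome bisulfite sequencing was done on somatosensory cortex, with 2 cKO and 2 control libraries. CASAVA, Bowtie2 and mm10 appear in the submitters' processing notes, with neither version nor role. For the region caller, its thresholds, coverage and the combining of libraries, the details were not given in the sources used here. The authors deposited mean levels per group as a fraction, printed here as a percent, with their difference and area statistic, which is a score. Depth per library is unknown, so no interval, test or left-out library was possible, and incomplete conversion would enter the levels unseen.

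The deposited cytosine number counts both strands: in 96 CG regions lying whole in a promoter window it equalled the CG cytosines of both strands in 86 and never exceeded them, and all 96 began and ended in a CpG. Genes came from RefSeq on GRCm38.p6 (autosomes and X, without entries ending in the first 3 Mb), with an overlap of at least 1 bp. Strand and start sites came from the RefSeq promoter table. Exons and introns were not analysed here. Strength means the absolute area statistic, and fold is control over cKO. The members and lists were chosen with earlier results of these data known. Named were all 10 genes, their strongest CG and CHH region, every gain, protein-coding genes sharing a region, and up to 6 genes per other list by their strongest CG region. Other regions of the 10 genes were described after their values were seen. Assignment was tested on simulated data. Python 3.11.15 and pandas 2.3.3 were used.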

Additional observations from a re-analysis of the deposited data

How the results depend on the processing

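No paired analysis was possible because the table holds group means and no value per library; for the same reason no replicate was left out and no coverage minimum was tried. Counts are called alike here when within 1.5 times of each other. The medians are taken over losses alone, so their direction is fixed by that choice and says nothing of stability. CG losses were 21 with the gene body alone and 37 with 25 kb, and CHH losses 29 and 56. With an absolute difference of at least 0.3, 14 CG losses in 5 genes and 0 genes with a CG gain were left. This limit is a fraction, as the levels were deposited, and not in points. With an area statistic at or above the median of all regions of the context, 19 CHH losses were left, and without Flt1, chosen after the data were seen, 25. With 25 kb on both sides, regions higher in cKO numbered 4 and genes with a CHH gain 2, the added regions lying near Notch3 and Abcb1a. When regions in other protein-coding genes were left out, 1 region higher in cKO and 0 genes with a CHH gain were left, since the Abcb1a region lies in Rundc3b. Of 82 comparisons with an alternative, 74 were alike and 8 were not, and all 8 are given above. All 8 are counts. The 74 include every median, and counts that a setting could not alter, such as gains without Flt1, so the tally does not measure stability.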
